A study of Mus musculus with 15 samples.

Results

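Translation factor genes were followed in bulk RNA-seq of mouse skeletal muscle stem cells, the quiescent Pax7-expressing cells that repair muscle. The genes were chosen by name alone, as every row whose symbol begins with Eif and a digit, or with Eef1 or Eef2, and 58 of the 8059 listed genes met that rule. Most encode translation initiation factors, but 5 encode elongation factors, 2 encode enzymes that modify elongation factors, and Eif5a and Eif4a3 have their main known roles in elongation and in the exon junction complex. At T0 the muscle was intact and already fixed with PFA (paraformaldehyde). At T15, T30, T60, T90 and T120 the muscle had been dissociated with collagenase and dispase, enzymes that digest the matrix between cells, and the material was fixed as well. The numbers in the labels carry no unit and are taken as minutes. The table holds 4 libraries at T0, T15, T60 and T120 and 3 libraries at T30 and T90, marked A to D, and T0 is the control of every comparison unless another time point is named. Strain, age, sex and the sorting gate of these bulk samples are not given in the labels, and nothing states that the libraries come from separate mice, so the p-values measure the spread between these libraries.

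Translation of most mRNAs begins when the cap-binding protein eIF4E, the scaffold eIF4G and the RNA helicase eIF4A, together called eIF4F, assemble at the 5′ end of the mRNA. The small ribosomal subunit arrives there carrying eIF3, eIF1, eIF1A, eIF5 and the ternary complex of eIF2, GTP and the initiator tRNA, and scans to the start codon. eIF2 is recharged with GTP by the exchange factor eIF2B, and phosphorylation of eIF2 by stress-activated kinases blocks eIF2B and lowers initiation. Quiescent muscle stem cells are known for low protein synthesis, held down in part by phosphorylated eIF2, and their activation is known to raise it. RNA levels of these genes say nothing about phosphorylation or about translation itself.

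The 22 libraries held 2974294 to 10482407 counts at T0 to T30 and 8647622 to 27826437 counts at T60 to T120, so most of the later levels carry the smaller counting error. All 10 satellite cell markers were listed, and their summed level lay between 4690 and 7145 CPM (counts scaled to library size) in every library, although 6 of the 10, Pax7 among them, fell and 2 rose at T120. The sum was held up by Sdc4, which averaged 421 CPM at T0 and 2528 CPM at T120. Pax7 averaged 1344 and 377 CPM and Chodl 1325 and 348 CPM. The even sum thus does not show an even content of satellite cells. Levels over 7 long genes known from other tissues, taken here as a measure of stray reads, were 2.86 ± 1.41 CPM per kilobase of exon (SD, n = 4) at T0 and 5.02 ± 3.002 (n = 3) at T30, against 0.278 ± 0.0416 (n = 4) at T60 and 0.542 ± 0.400 (n = 4) at T120. As a share of a gene's own level, this stray level had a median of 14.2% over the 58 genes at T0, 29.2% at T30, 1.43% at T60 and 1.84% at T120, and it exceeded 30% for 12 of the 58 genes at T0, 28 at T30 and 2 at T120. The largest share was 112% at T0 and 133% at T30, which is more than the gene's own level. Markers of blood vessel cells moved as well. The 5 listed endothelial markers summed to 113 to 286 CPM from T0 to T90 and to 321 to 599 CPM at T120, and all 5 rose at T120. The 7 listed smooth muscle and pericyte markers summed to 648 to 869 CPM at T0, 1200.4 to 1339 CPM at T30, 1819 to 2065 CPM at T60 and 1755 to 2251 CPM at T120, and 1 of the 7 rose at T30, 3 at T60 and 3 at T120. Des made up most of that sum, with a mean of 445 CPM at T0 and 1441 CPM at T60, and it encodes desmin, which muscle cells of other kinds also make. Acta2 averaged 166 CPM at T0 and 301 CPM at T60, Mcam 58.3 and 60.5 CPM, and the pericyte gene Rgs5 12.4 CPM at T0, 7.20 at T60 and 125 at T120. The 7 listed myofibre markers summed to 479 to 1157 CPM from T0 to T30 and to 215 to 472 CPM from T60 to T120. Cd68, the only listed immune marker, rose at T30 (log2 1.72), T60 and T120. Of the 4 listed fibroblast markers 1 fell at T60, 1 fell at T90 and 2 rose at T120. The part of vessel cells, immune cells, fibroblasts and fibre fragments in the results was not tested. In bulk samples, fewer cells of a type and less RNA per cell cannot be told apart.

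Few translation factor genes were called in the first 30 minutes, and from T60 on more rose than fell. At T15, 1 of the 58 genes rose and none fell, where 0.67% of all listed genes were called (0.658% higher and 0.0124% lower), a call being an adjusted p under 0.05 in edgeR's quasi-likelihood test over all 8059 genes. At an unadjusted p under 0.05 in the same test the count was 2 genes at T15 and 14 at T30. The T30 count was 12 with the stray level subtracted and 7 with the authors' size factors. Without the 5 libraries of highest stray level it was 5. The share of all genes at that unadjusted threshold was not counted. At T30, 4 rose and none fell, where 5% of all genes were called, 3.66% higher and 1.34% lower. With the authors' size factors in the same test, 437 genes were higher and 41 lower at T30, against 295 and 108 with edgeR's own factors. At T60, 22 rose and 9 fell, where 56.2% of all genes were called, 27.9% higher and 28.3% lower. At T90, 32 rose and 8 fell, where 68.8% of all genes were called, 33.8% higher and 35% lower. At T120, 37 rose and 10 fell, where 76.8% of all genes were called, 37.3% higher and 39.5% lower, which leaves 11 genes that were not called. The share of translation factor genes that rose at T120 was therefore above that of all listed genes and the share that fell was below it; this difference was not tested. With the stray level subtracted from every library, 13 genes rose and 11 fell at T60, where of 8050 genes 1644 rose and 1247 fell. Rises thus outweighed falls at T60 no more than among all genes. At T90 20 genes rose and 10 fell, where 2183 of the 8050 rose and 1852 fell. At T120 the counts were 31 and 8, where 2632 of the 8050 rose and 2309 fell.

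The median log2 fold change of the 58 genes was 0.02 at T15 and -0.08 at T30, then 0.17, 0.39 and 0.48 at T60, T90 and T120, while over all listed genes it stayed between -0.08 and 0.01. With the stray level subtracted the median of the 58 genes was -0.02 at T60, below the 0.03 of all genes, and then 0.13 and 0.37 at T90 and T120, above the 0.03 and 0.05 of all genes. Together the genes took 1.41% ± 0.0722 of the listed counts at T0 (SD, n = 4), 1.30% ± 0.134 at T30 (n = 3), 1.51% ± 0.0607 at T60 (n = 4) and 1.77% ± 0.0392 at T120 (n = 4). The lowest share at T120, 1.74%, exceeded the highest at T0, 1.51%. Of the 58 genes, 51 were called in at least 1 comparison with T0: 1 for the first time at T15, 3 more at T30 and 27 at T60, with 12 added at T90 and 8 at T120. The genes that were called in none of these comparisons were Eef1d, Eif2a, Eif2ak4, Eif3f, Eif3h, Eif3m and Eif4a2. First calls were not counted over all listed genes, of which 0.67% were called at T15, 5% at T30 and 56.2% at T60. A joint F test of all comparisons with T0 called 52 of the 58 genes, where it called 85.7% of all listed genes. Being called at some time was thus common to most listed genes. The heat map of all 58 genes shows the change at T60 and the few genes that went the other way.

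**Figure D1:**
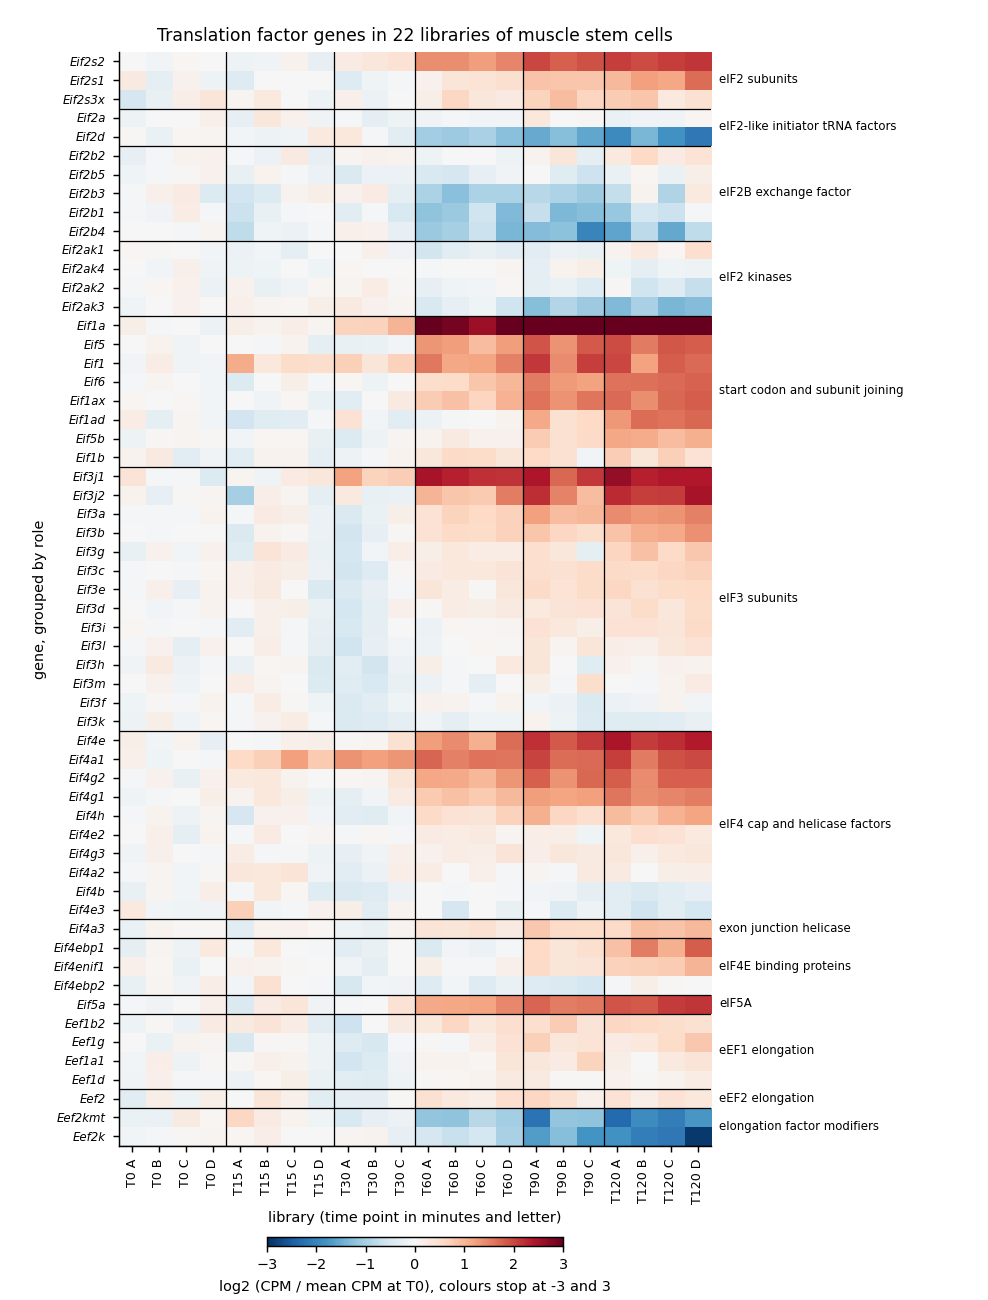
Level of each of the 58 genes (rows, by role) in each of the 22 libraries (columns, by time point and letter) as log2 of its CPM over the mean CPM at T0; red is higher and blue is lower. The rows of Eif1a, Eif3j1 and Eif4e turn deep red at T60 to T120, and those of Eef2k, Eef2kmt and Eif2d turn blue.

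Eif4a1 was the only gene called at T15. It encodes the main isoform of the eIF4A helicase, which unwinds the 5′ leader of mRNAs, and lies at chr11:69666936-69672423 on the minus strand (GRCm38, GENCODE M21). Its level was 107, 87.3, 95.8 and 93.8 CPM in the T0 libraries A to D and 146, 158, 225 and 166 CPM at T15. All 4 T15 libraries lay above all 4 T0 libraries, with T15 C the highest. The log2 fold change at T15 was 0.86 (SE 0.13, adjusted p = 0.000547). With the stray level subtracted from every library the same difference was 0.79 with an adjusted p of 0.063, above the 0.05 threshold. At T30 the 3 libraries held 246, 226 and 239.5 CPM, a log2 fold change of 1.30 (SE 0.14, adjusted p = 1.42e-06). The rise then flattened: the level was 297 ± 19.1 CPM at T60 and 357 ± 51.1 CPM at T120 (SD, n = 4 each), and the difference between T60 and T120 missed the threshold (log2 0.26, adjusted p = 0.0793).

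The 3 other genes that rose at T30 were Eif1a, Eif3j1 and Eif2s2. Eif1a encodes a form of eIF1A, which helps the small subunit scan and recognise the start codon. Its level was 24.7, 21.04, 22.1 and 19.4 CPM at T0, 34.8, 35.02 and 44.3 CPM at T30 and 174, 159, 129 and 192 CPM at T60. The groups did not overlap, and the log2 fold change was 0.82 (SE 0.14, adjusted p = 0.00066) at T30 and 2.91 at T60. The stray level was 46.4% of Eif1a's level at T0 and 49.7% at T30, and with it subtracted the T30 difference was log2 1.10 (adjusted p = 0.00623). Eif1a is close in sequence to Eif1ax, so the division of reads between them depends on the counting. Eif3j1 encodes the loosely bound j subunit of eIF3 and measured 16.7, 12.3, 12.6 and 9.62 CPM at T0 and 29.7, 20.4 and 21.4 CPM at T30, a log2 fold change of 0.90 (SE 0.19, adjusted p = 0.00582). The stray level came to 112% of Eif3j1's own level at T0 and 102% at T30, and to 5.17% at T120, so its early values lie at the stray level. Eif2s2, which encodes the beta subunit of eIF2, rose least of the 4, from 55.5, 51.8, 56.7 and 55.4 CPM at T0 to 65.1, 69.0 and 74.5 CPM at T30 (log2 0.34, SE 0.09, adjusted p = 0.0347). Eif1a and Eif4a1 were called at T30 in all 16 alternative settings tried for that comparison, while the call of Eif3j1 was lost in 5 and that of Eif2s2 in 8 of them, subtraction of the stray level among them. That level was 42.7% of Eif2s2's own level at T30.

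**Figure D2:**
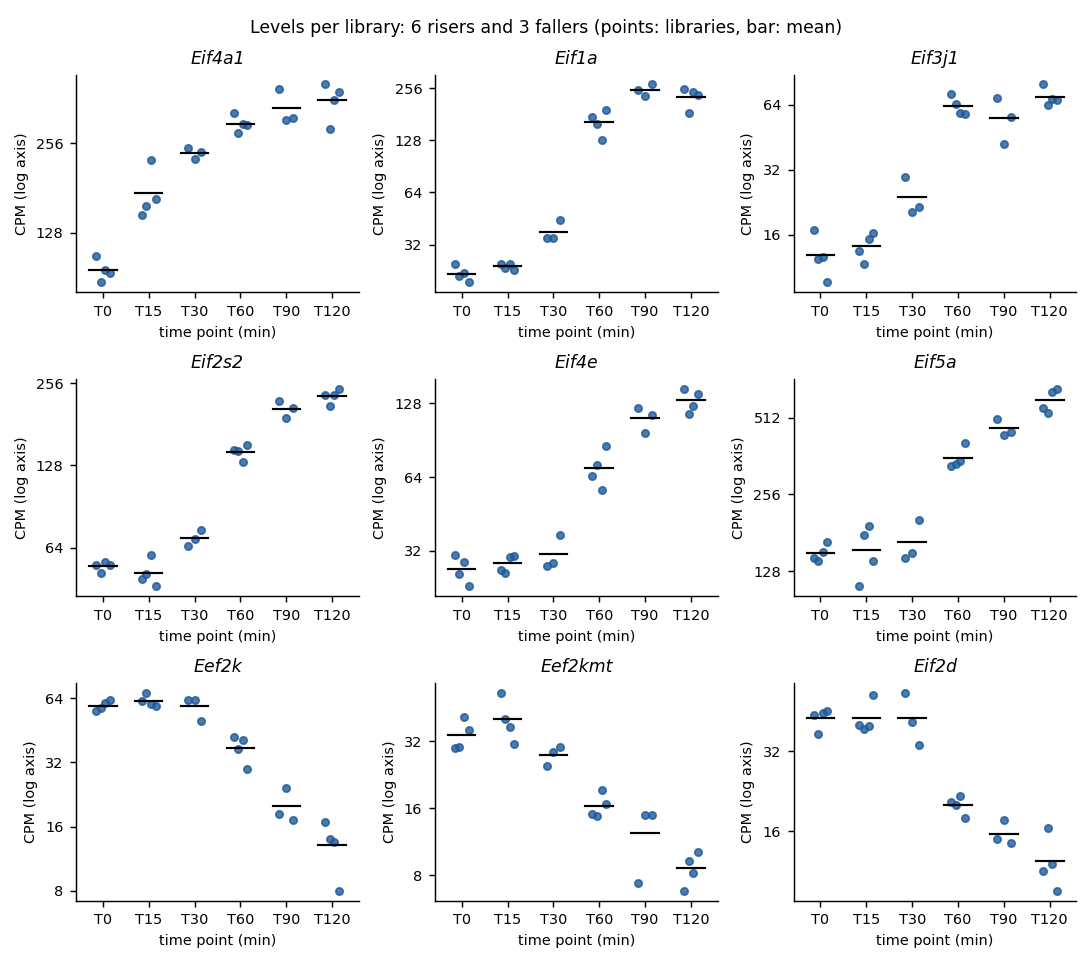
CPM per library (points) and group mean (bar) on log axes for 6 genes that rose and 3 that fell, by time point in minutes. By first call against T0, Eif4a1 climbs from T15, Eif1a, Eif3j1 and Eif2s2 from T30, and Eif4e and Eif5a from T60. Eef2k, Eef2kmt and Eif2d fall from T60. The first calls of Eif4a1, Eif3j1, Eif2s2 and Eef2k were lost with the stray level subtracted.

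The subunits of eIF2 itself rose, while the genes that recharge or inhibit it went different ways. All 3 listed eIF2 genes were higher at T120. Eif2s2 reached 231, 211, 231 and 244 CPM at T120, with every library far above T0, a log2 fold change of 2.07 (SE 0.09, adjusted p = 2.12e-13). Eif2s1, the alpha subunit that the stress kinases phosphorylate, rose from 53.3, 36.0, 48.6 and 39.9 CPM at T0 to 87.1, 104, 98.8 and 141 CPM at T120 (log2 1.28, SE 0.15, adjusted p = 8.02e-08). Eif2s3x, the gamma subunit, rose by log2 0.59 (SE 0.18, adjusted p = 0.00506), but the stray level was 59.5% of its T0 level, and with that level subtracted the adjusted p was 0.16. Eif2d encodes a factor that can deliver tRNA to the ribosome without eIF2, and it fell. Its 4 libraries held 43.8, 37.0, 44.4 and 45.2 CPM at T0, 20.7, 20.0, 21.7 and 17.95 CPM at T60 and 11.3, 16.4, 12.1 and 9.59 CPM at T120. No T60 or T120 library reached the lowest T0 value, and the log2 fold change at T120 was -1.79 (SE 0.17, adjusted p = 4.01e-09). The stray level made up 41.8% of Eif2d's level at T0 and 33.5% at T120, and the fall was log2 -1.92 after subtraction. Eif2a, another factor of that kind, was not called at any time point (log2 -0.09, adjusted p = 0.489 at T120).

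Genes of eIF2B, the 5-subunit exchange factor, dipped at T60 and partly returned. At T60 4 of its 5 genes fell and none rose. Eif2b1, the alpha subunit, had 21.6, 20.9, 26.3 and 21.7 CPM at T0, 9.73, 10.4, 14.9 and 9.01 CPM at T60 and 10.4, 15.6, 14.4 and 21.96 CPM at T120, and Eif2b3, the gamma subunit, had 41.6, 48.3, 52.0 and 32.6, 22.5, 18.4, 22.7 and 22.6 and 26.7, 47.3, 23.5 and 53.1 CPM. All T60 libraries of both genes lay below all T0 libraries, whereas the T120 libraries of each overlapped T0. The stray level was 27.4% of Eif2b1's level and 36.9% of Eif2b3's level at T0, and both T60 calls were made after subtraction. The log2 fold changes at T60 were -1.03 (SE 0.22, adjusted p = 0.00048) for Eif2b1 and -1.01 (SE 0.23, adjusted p = 0.000929) for Eif2b3. Between T60 and T120 Eif2b1, Eif2b2 and Eif2b3 rose, by log2 0.51 (SE 0.22), 0.46 (SE 0.14) and 0.80 (SE 0.23), with adjusted p = 0.0483, 0.00867 and 0.00467. The call of Eif2b1 in that step was lost in 11 of 17 settings, among them the library letter as a block (adjusted p = 0.0681), while those of Eif2b2 and Eif2b3 were lost in none. Against T0, Eif2b1 was still lower at T120 by log2 -0.53 (SE 0.22, adjusted p = 0.0338), a call lost in 8 of 17 settings, and Eif2b2 was higher by 0.39 (SE 0.15, adjusted p = 0.0208), a call lost in 5 of them. Eif2b4, the delta subunit, did not return: it fell by log2 -1.12 (SE 0.22, adjusted p = 9.7e-05) at T120. Eif2b5, the catalytic epsilon subunit, had the highest level per kilobase of the eIF2B genes at T0, and its log2 difference was -0.32 (adjusted p = 0.0491, a call lost in 11 of 17 settings) at T60 and -0.04 (adjusted p = 0.806) at T120.

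The 4 kinases that phosphorylate eIF2 took different courses. Eif2ak3 encodes PERK, the kinase of endoplasmic reticulum stress, and lies at chr6:70844515-70905245. It held 51.2, 55.8, 61.5 and 56.3 CPM at T0, 67.7, 61.0 and 59.7 at T30, 40.8, 47.1, 51.4 and 36.9 at T60 and 22.3, 28.8, 21.8 and 22.7 at T120. The fall was gradual, with T120 wholly below T0, and the log2 fold change at T120 was -1.23 (SE 0.12, adjusted p = 9.28e-09). Eif2ak1, the haem-regulated kinase, was the only 1 of the 58 genes called in opposite directions: log2 -0.35 (SE 0.11, adjusted p = 0.00809) at T60 and 0.26 (SE 0.11, adjusted p = 0.0331) at T120. The T60 call was lost after subtraction of the stray level (adjusted p = 0.0857) and the T120 call in 4 of 17 settings. Its libraries held 51.7, 50.9, 48.9 and 46.4 CPM at T0, 33.6, 39.3, 42.5 and 39.7 at T60 and 53.4, 60.8, 51.9 and 70.3 at T120, and all 4 T120 values exceeded all T60 values. Eif2ak2, which encodes PKR, the kinase that senses double-stranded RNA, fell by log2 -0.39 (SE 0.14, adjusted p = 0.0143) at T120, a call that was lost in 5 of 17 alternative settings, and the stray level was 36.6% of its T0 level. Eif2ak4, which encodes the amino acid sensor GCN2, was not called at any time point (T120 log2 -0.17, adjusted p = 0.0988).

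The genes of start codon recognition and subunit joining rose as a group. All 8 were higher at T120, with a median log2 fold change of 1.68. Eif1a stood at 254, 184, 242 and 235 CPM at T120, the largest fitted rise of the 58 genes (log2 3.399, SE 0.13, adjusted p = 9.47e-14). Eif3j1, whose T0 level lay at the stray level, cannot be ranked against it: with that level subtracted the difference was log2 3.99 for Eif1a and 5.55 for Eif3j1. Eif5, the GTPase-activating protein of eIF2, held 161, 174, 149 and 161 CPM at T0, 138, 139.7 and 152 at T30, 403, 384, 304 and 386 at T60 and 630.3, 475, 589 and 571 at T120. It was level through T30 and then rose at each step, with log2 fold changes of -0.17 at T30 (adjusted p = 0.526), 1.197 at T60 and 1.81 (SE 0.13, adjusted p = 8.18e-11) at T120. Eif1, which keeps the scanning ribosome from starting at wrong codons, had T15 libraries at 152, 88.2, 103 and 102 CPM against 67.0, 82.8, 65.1 and 66.8 CPM at T0. Every T15 library was above every T0 library, but the test at T15 missed the threshold (log2 0.66, SE 0.19, adjusted p = 0.203), and Eif1 was called from T60 on (T120 log2 1.70). Eif1ax rose by log2 1.67 (SE 0.12), Eif6, which keeps large subunits from joining too early, by 1.69 (SE 0.13), and Eif5b, the GTPase of subunit joining, by 1.07 (SE 0.11) at T120. Eif1ad, an eIF1A-domain gene, rose late: 17.0, 18.8, 19.2 and 20.8 CPM at T60, within the T0 range of 22.8, 15.8, 20.7 and 18.3 CPM, and 47.4, 61.5, 60.4 and 64.2 CPM at T120 (log2 1.62, SE 0.17, adjusted p = 1.82e-07 between T60 and T120). The stray level was 34.4% of the T0 level of Eif1ad and 34.6% of that of Eif6, and both T120 calls were made after subtraction.

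The subunits of eIF3, the largest initiation factor, did not move as 1 block. Of 14 eIF3 genes 10 rose, 1 fell and 3 were not called at T120, and the median log2 fold change was 0.51. The 2 genes for the j subunit led: Eif3j1 rose by log2 2.46 (SE 0.18, adjusted p = 1.36e-10) and Eif3j2 by 2.23 (SE 0.26, adjusted p = 1.26e-07). These 2 genes are near copies, so how the counting divided their reads is uncertain. Eif3a, which encodes the scaffold of the complex and had the highest level per kilobase among eIF3 genes at T120, held 735, 739, 733 and 820.0 CPM at T0 and 2019, 1876, 1939.5 and 2165 CPM at T120. The groups lay far apart (log2 1.402, SE 0.13, adjusted p = 2.88e-09). Eif3b, its partner in the core, rose by log2 1.13 (SE 0.13, adjusted p = 1.65e-07). Eif3c, Eif3d, Eif3e, Eif3g, Eif3i and Eif3l rose by log2 0.28 to 0.73, and the call of Eif3l was lost in 7 of 17 settings. The octamer subunits Eif3f, Eif3h and Eif3m were not called, with log2 values of -0.07, 0.10 and 0.09 (adjusted p = 0.552, 0.53 and 0.561). Eif3k, a small subunit of the complex, held 101, 127, 106 and 118 CPM at T0 and 88.5, 88.2, 89.6 and 96.4 CPM at T120 and fell by log2 -0.32 (SE 0.10, adjusted p = 0.00745), a call that was lost when T0 B was left out.

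Among the cap-binding and helicase factors 7 of 10 genes rose and 2 fell at T120, and Eif4e, Eif4a1 and Eif4g1, the main genes of the 3 eIF4F proteins, were all among the 7. Eif4e held 30.7, 25.6, 28.8 and 22.8 CPM at T0, 27.7, 28.6 and 36.9 at T30, 64.7, 71.99, 56.8 and 85.7 at T60, 122, 97.0 and 115 at T90 and 147, 116, 125 and 139 at T120. It was level until T30 and rose thereafter, by log2 2.30 (SE 0.14, adjusted p = 1.04e-11) at T120. The stray level was 53.7% of its T0 level and 2.88% of its T120 level, and with it subtracted the difference was log2 3.10. Eif4g1, the scaffold, rose from 368, 395, 400.3 and 458 CPM at T0 to 1225, 1067, 1110.1 and 1176 CPM at T120 (log2 1.497, SE 0.12, adjusted p = 4.37e-10). Eif4g2, an eIF4G-like protein that lacks the eIF4E site, rose by log2 1.72 (SE 0.13, adjusted p = 3.74e-10), with T120 B at 1452 CPM apart from 1879 to 1900 CPM in the other 3 libraries. Eif4h, a helper of the helicase, rose by log2 1.003 (SE 0.14), and Eif4e2 and Eif4g3 rose by 0.38 (SE 0.10) and 0.28 (SE 0.10). Eif4b, the other helper, fell slightly by log2 -0.33 (SE 0.12, adjusted p = 0.017), a call lost without T0 B, T0 D or T120 A, and Eif4e3, a cap-binding relative of low level, by -0.44 (SE 0.18, adjusted p = 0.0334). The call of Eif4g3 was lost after subtraction of the stray level, and that of Eif4e3 was lost in 10 of 17 settings, subtraction among them. Eif4a3, the helicase of the exon junction complex, rose by log2 0.84 (SE 0.11, adjusted p = 1.13e-06).

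Each of these 3 eIF4F genes has a promoter window with the same short sequence. RefSeq promoter windows of GRCm38.p6, from 250 bases before to 50 after the transcription start, were matched for 46 of the 58 genes by symbol. The E-box CACGTG, which MYC and related factors can bind and which reads the same on both strands, was found in windows of 11 of those 46 genes, and 21.3% of the 61 windows of the translation factor genes held it, against 7.15% of all 32851 windows and 10.7% of the windows of listed genes. Of the 11 genes 8 rose, 2 fell and 1 was not called at T120, and of all 46 matched genes 29 rose, 9 fell and 8 were not called. The ETS core CCGGAAG, searched on both strands, was in 31.1% of the 61 windows against 8.86% of all windows and 18.4% of those of listed genes. CCAAT was in 23.0% of the 61 windows against 36.8% of those of listed genes, and TATAAA in 6.56% against 6.62%. TGACGTCA was in 1.64% against 3.30%, TGANTCA in 8.20% against 4.65% and TGATGNAA in 3.28% against 1.93%, N being any base. These were the other sequences searched, also on both strands. Some genes, such as Eif5a and Eif4e2, gave several overlapping windows, so the percentages count some stretches more than once. These matches are a description of the letters and were not tested. Shown are the 250 bases before 1 RefSeq start of each of the 3 eIF4F genes, which rose, and of Eef2k, which fell and holds the same hexamer; each reads 5′ to 3′ on the gene's strand, with the E-box in capitals. The windows are chr11:69672424-69672673 (minus strand), chr3:138527018-138527267 (plus; a second window of Eif4e, at chr3:138525941-138526240, holds no E-box), chr16:20672477-20672726 (plus) and chr7:120842581-120842830 (plus; 2 further windows of Eef2k hold no E-box).
Eif4a1: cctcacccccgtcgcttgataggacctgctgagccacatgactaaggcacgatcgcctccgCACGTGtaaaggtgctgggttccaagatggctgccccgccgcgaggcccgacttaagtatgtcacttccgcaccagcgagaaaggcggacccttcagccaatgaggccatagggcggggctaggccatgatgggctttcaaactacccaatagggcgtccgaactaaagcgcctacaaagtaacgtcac
Eif4e: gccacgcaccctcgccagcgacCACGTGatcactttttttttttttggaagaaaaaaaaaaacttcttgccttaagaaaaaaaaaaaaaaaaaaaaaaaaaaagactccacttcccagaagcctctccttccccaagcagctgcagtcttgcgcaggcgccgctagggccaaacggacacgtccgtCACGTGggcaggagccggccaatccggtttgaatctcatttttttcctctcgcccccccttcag
Eif4g1: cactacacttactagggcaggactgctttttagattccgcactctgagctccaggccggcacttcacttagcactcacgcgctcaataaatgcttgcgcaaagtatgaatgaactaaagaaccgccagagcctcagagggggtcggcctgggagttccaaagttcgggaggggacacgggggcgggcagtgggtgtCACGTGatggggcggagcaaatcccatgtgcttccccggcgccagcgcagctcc
Eef2k: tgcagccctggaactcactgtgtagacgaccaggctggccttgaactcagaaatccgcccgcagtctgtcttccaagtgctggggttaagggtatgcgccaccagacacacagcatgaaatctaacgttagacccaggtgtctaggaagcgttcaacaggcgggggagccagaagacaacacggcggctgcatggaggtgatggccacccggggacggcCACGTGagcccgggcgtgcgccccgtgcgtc
The E-box starts 189 bases before that start of Eif4a1, 228 and 64 before that of Eif4e, 54 before that of Eif4g1 and 31 before that of Eef2k. The hexamer thus stands before genes that rose and before both genes with it that fell, Eef2k and Eif3k.

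Of the 3 listed genes whose proteins bind eIF4E to hold or carry it, 2 rose at T120. Eif4ebp1 encodes the 4E-binding protein that holds eIF4E off the cap until mTOR phosphorylates it. Its level was 25.0, 32.5, 27.7 and 37.6 CPM at T0, 22.7, 29.1, 27.3 and 29.8 at T60, 46.2, 39.2 and 42.9 at T90 and 56.1, 88.7, 64.3 and 109 at T120. T60 overlapped T0, with T60 A below the lowest T0 library, and T120 lay wholly above T0, with T120 B and D higher than A and C. Its first call was at T90 and was lost in 8 of 16 settings. The log2 fold change was -0.18 at T60 (adjusted p = 0.397) and 1.36 (SE 0.18, adjusted p = 5.68e-07) at T120. Eif4enif1, which encodes a carrier of eIF4E into the nucleus, rose by log2 0.80 (SE 0.10, adjusted p = 1.97e-07). Eif4ebp2 was not called at T120 (log2 0.03, adjusted p = 0.875), and its fall at T90, log2 -0.45 (SE 0.16, adjusted p = 0.0142), turned into 0.45 (adjusted p = 0.741) when the stray level, 64.4% of its T0 level, was subtracted.

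Eif5a rose strongly, while most elongation factor genes moved little. Eif5a encodes a hypusine-modified factor that helps ribosomes through hard-to-join amino acids, and lies at chr11:69916714-69921958. It held 145, 140.0, 152 and 167 CPM at T0, 144, 151 and 203 at T30, 330.5, 338, 345 and 409 at T60 and 562, 537, 646 and 667 at T120. T30 overlapped T0, and T60 and T120 did not. The log2 fold change was 1.998 (SE 0.15, adjusted p = 2.16e-10) at T120. Eef1a1, which brings aminoacyl-tRNA to the ribosome, held 2303, 2801, 2213 and 2513 CPM at T0 and 2781, 2433, 2987 and 3202 CPM at T120 and was not called at T120 (log2 0.21, SE 0.13, adjusted p = 0.145). Eef1a1 has many pseudogene copies, so its count depends on how shared reads were treated. Eef1b2 and Eef1g, subunits of the exchange factor of eEF1A, rose by log2 0.55 (SE 0.16) and 0.50 (SE 0.15), and the call of Eef1g was lost with the stray level subtracted (adjusted p = 0.156). Eef2, the translocase, rose by log2 0.35 (SE 0.15, adjusted p = 0.0427) at T120, a call that was lost in 7 of 17 settings, with T0 at 2350.3, 3365, 2639 and 3316 CPM and T120 at 3911, 3368, 3918 and 3628 CPM. The T0 and T120 values of Eef2 meet at about the same level.

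The 2 enzymes that modify eEF2 fell. Eef2k encodes the kinase that phosphorylates eEF2 and slows elongation, and lies at chr7:120842831-120907450 on the plus strand. It held 55.7, 57.7, 60.9 and 62.6 CPM at T0, 62.7, 63.2 and 50.3 at T30, 42.0, 37.1, 40.8 and 29.97 at T60, 18.4, 24.3 and 17.2 at T90 and 16.8, 14.0, 13.5 and 7.99 at T120. From T60 on no library reached the T0 range, and T120 D was the lowest. The log2 fold change was -0.66 (SE 0.17, adjusted p = 0.00195) at T60 and -2.19 (SE 0.18, adjusted p = 5.09e-10) at T120, the deepest fall of the 58 genes. The stray level was 30.7% of Eef2k's level at T0 and 34.0% at T120, and with it subtracted the T120 fall was log2 -2.56. Eef2kmt, a methyltransferase of eEF2, held 29.9, 30.1, 41.3 and 35.9 CPM at T0 and 6.83, 9.31, 8.17 and 10.2 CPM at T120. The ranges were far apart, and the fall was log2 -1.98 (SE 0.21, adjusted p = 3.62e-08).

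**Figure D3:**
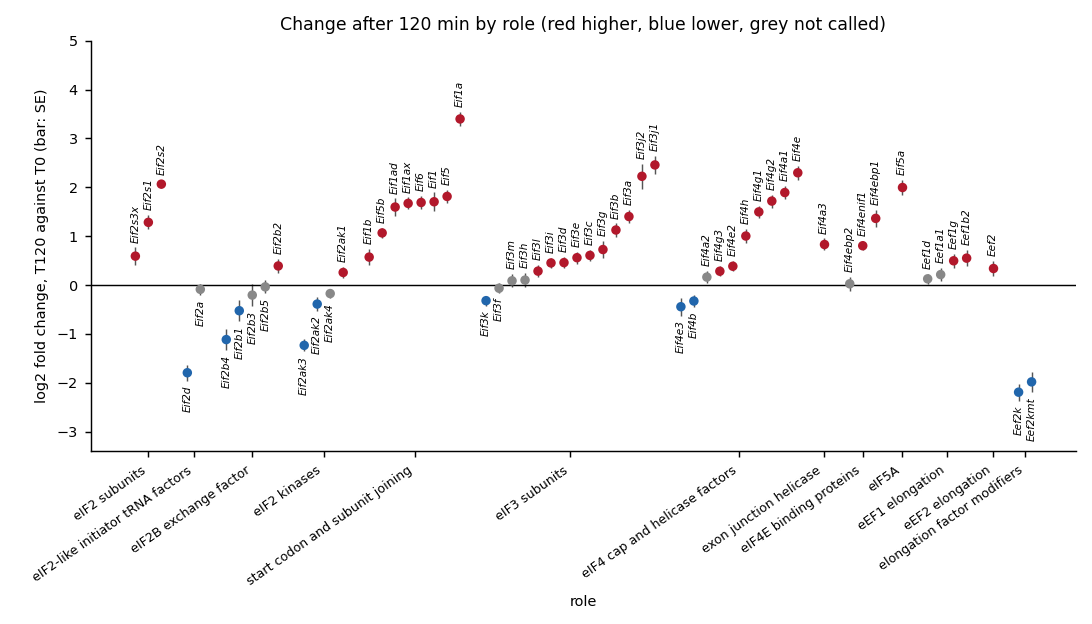
Log2 fold change at T120 against T0 (points) with its SE (bars) for each of the 58 genes, grouped by role along the horizontal axis; red genes were higher, blue lower and grey not called. All 8 start codon and joining genes are red, eIF2B and the eIF2 kinases are mixed, and both modifiers of eEF2 are blue.

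Per kilobase of exon, Eef1a1 and Eef2 stood above all the other genes at both ends of the time course. At T0 Eef1a1 measured 986 ± 105 CPM per kilobase (SD, n = 4) and Eef2 878 ± 151, values that do not differ beyond their spread, and Eef1b2 followed at 173 ± 24.5. Among the complexes the highest genes at T0 were Eif4b at 104 ± 12.9 for the cap and helicase factors and Eif3h at 99.8 ± 14.4 for eIF3, which also lie within each other's spread. The highest of eIF2B was Eif2b5 at 19.5 ± 1.44 and the highest of eIF2 was Eif2s1 at 8.98 ± 1.59. At T120 Eif5a had moved from rank 8 to rank 3 with 254 ± 26.6 CPM per kilobase, level with Eef1b2 at 253 ± 12.6, and Eif3a followed at 229 ± 14.3. Eif4b had moved from rank 4 to rank 14 with 82.6 ± 4.09. Eif4g2 and Eif4g1 measured 175 ± 21.5 and 157 ± 9.63 at T120, next to each other in rank and within their spread.

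Related genes often parted ways, which a ratio of 2 counts within a library shows without any scaling between libraries. The log2 ratio was compared between T120 and T0 for 12 pairs by a two-sided exact permutation test over 4 against 4 libraries, whose smallest possible p is 0.0286, and 9 pairs reached it (adjusted p = 0.0381 over the 12 pairs). Eif4a1 stood at log2 -1.64 ± 0.18 relative to Eif4a2 at T0 (SD, n = 4) and at 0.08 ± 0.12 at T120. The 2 helicase genes, whose proteins are closely alike, thus went from unequal to about equal counts, and the change was 1.72. Eif1a against Eif1ax went from -1.56 ± 0.09 to 0.16 ± 0.10, with its highest mean at T60. Eif4e gained on its relatives: by 1.90 on Eif4e2, a cap-binding protein linked to repression, and by 2.73 on Eif4e3. Eif4g1 gained 1.22 on Eif4g3 but not on Eif4g2 (-0.22, exact permutation adjusted p = 0.0935).

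The other called pairs were Eif4a1 against Eif4a3 (1.05), Eif1 against Eif1b (1.10), Eif4ebp1 against Eif4ebp2 (1.30) and Eif2ak3 against Eif2ak4 (-1.06), the last being a loss of PERK relative to GCN2 RNA. With the stray level subtracted and 0.5 added to every count, the gain of Eif4ebp1 on Eif4ebp2 turned to -1.01. The difference for Eif3j1 against Eif3j2 went to 5.42. The stray level came to 112% of Eif3j1's T0 level, so the 5.42 depends on the 0.5 added and gives no size of change. It also made up much of Eif4ebp2's T0 level, so the -1.01 is uncertain. Eif2ak1 against Eif2ak2 (0.66, exact permutation adjusted p = 0.0686) and Eif3j1 against Eif3j2 (0.24, adjusted p = 0.257) did not pass. A ratio shows unequal change and does not say which gene moved.

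**Figure D4:**
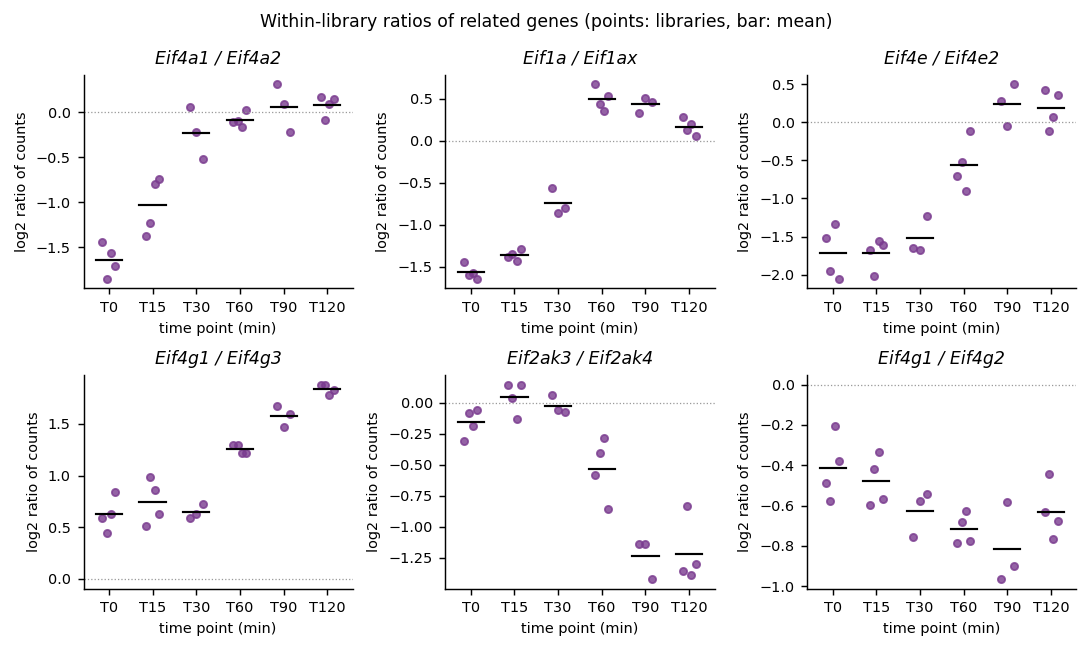
Log2 ratio of counts of 2 related genes within each library (points) and the group mean (bar) for 6 pairs, by time point in minutes; the dotted line marks equal counts. The ratio of Eif4a1 to Eif4a2 rises from T15, that of Eif1a to Eif1ax crosses equality at T60, and that of Eif2ak3 to Eif2ak4 falls.

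The step from T30 to T60 and that from T60 to T120 were tested on their own. Between T30 and T60, 30 genes rose and 8 fell, where 51% of all genes were called, 26.5% higher and 24.5% lower. The T30 libraries held the highest stray level of all groups, and with that level subtracted 8 rose and 6 fell, of which 8 and 2 were among the calls before subtraction. After the same subtraction 1349 of 8050 genes rose and 983 fell in this step. The median log2 fold change was then -0.02 for the 58 genes and 0.19 for all genes. Between T60 and T120, where the stray level was low in both groups, 29 rose and 5 fell, where 60.4% of all genes were called, 28.4% higher and 32% lower, and 27 of the 29 and 4 of the 5 were called after subtraction as well. The steepest rises of this step were those of Eif1ad (log2 1.62), Eif4ebp1 (1.55) and Eif3j2 (1.15), and Eef2k (-1.53), Eef2kmt (-0.93) and Eif2ak3 (-0.88) fell most. Against T0, 31 of the 37 rises and 7 of the 10 falls at T120 were called after subtraction, and 30 of the 37 and 5 of the 10 were called in each of the 17 alternative settings tried. The 5 falls were those of Eef2k, Eef2kmt, Eif2d, Eif2ak3 and Eif2b4. The authors' deposited table gave, at an adjusted p under 0.05, a higher level at T120 for 38 of the 58 genes and a lower level for 9, and at T60 for 23 and 8. The share of all listed genes in those deposited comparisons was not counted, so these counts cannot be set against it.

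Other genes of the pathway moved in both directions. Of 48 further genes named for the pathway 41 were listed, and 25 rose and 9 fell at T120, where 37.3% of all genes were higher and 39.5% lower. In the same list 17 rose and 8 fell at T60, against 27.9% and 28.3% of all genes, and 4 rose at T30 and 2 at T15. The earliest were Ppp1r15a, which encodes the GADD34 subunit that directs a phosphatase to eIF2, with log2 fold changes of 2.29 (SE 0.19, adjusted p = 3.93e-08) at T15 and 3.99 at T120, and Atf4, the transcription factor translated when eIF2 is phosphorylated, with 0.79 (SE 0.13, adjusted p = 0.00165) and 2.92. The helicase gene Ddx3x rose by log2 2.90 at T120, the release factor genes Etf1 and Gspt1 by 3.02 and 1.90, and Pabpc1, the poly(A)-binding protein that closes the mRNA loop with eIF4G, by 1.44. Mknk1, a kinase of eIF4E, fell by log2 -1.495 (SE 0.14, adjusted p = 7.56e-09), whereas its relative Mknk2 rose by 0.37 (SE 0.15, adjusted p = 0.0351). Mtor, the kinase upstream of the 4E-binding proteins, fell by log2 -0.74 (SE 0.08, adjusted p = 6.19e-08). Pdcd4, an inhibitor of eIF4A, fell by log2 -0.54 (SE 0.13, adjusted p = 0.000632), and Gigyf2, a partner of Eif4e2, by -1.06 (SE 0.09, adjusted p = 8.51e-10).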

How the data were processed

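The authors deposited 1 table of the bulk libraries with raw counts per gene, whole-number normalized counts (scaled by the authors for library size, and so treated here as a score), log2 fold changes and p-values of their own comparisons. Per the submitters' processing notes, the study's tools include DESeq2 1.18.1, featureCounts 1.4.5-p3 and cutadapt 1.11 with the mm10 genome; per the labels' protocols, RNA was extracted with a kit for fixed tissue, and stranded total RNA libraries of low input were read as 65 base single-end reads on a HiSeq 2500. Neither the aligner nor the counting's strand setting is given in the sources used here. Listed are only genes with a mean normalized count of at least 98.4, so translation factor genes of lower level, and the 9 labelled samples from single cells, liver and nuclei, were not analysed here.

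The deposited counts of all 22 libraries were fitted in 1 model with edgeR 4.0.16 in R 4.3.3 (TMM factors, quasi-likelihood F test, Benjamini-Hochberg over 8059 genes, called at an adjusted p under 0.05). The low-count filter kept all 8059 genes, and the common biological coefficient of variation was 0.192. CPM use the TMM factors, SDs are over libraries, and exon lengths and positions come from GENCODE M21, which matched 8049 genes. No 2 libraries were identical. The fit was tested on simulated data. The stray level is the mean density over 7 long genes, and subtracting it removes that density times the exon length. As those genes had to pass the limit on the mean normalized count, the subtraction may remove too much at T0 and T30. Paralogue ratios used raw counts and an exact permutation test. Full values were given for up to 8 genes per direction with the largest called change at T120, genes called at T15 or T30 or in opposite directions, tested pairs, and the highest gene per complex. Alternatives were RLE factors, the authors' size factors, DESeq2 1.42.0, limma-voom 3.58.1, no filter, only the groups compared, the letter as a block, subtraction of the stray level, leaving out the 5 libraries with the highest stray level, and leaving out each library in turn. Libraries of the same letter deviated together between T30 and T60 (correlations 0.27, 0.30 and 0.12) and between T60 and T120 (0.47, 0.46, 0.19 and 0.36). Between T0 and later time points these correlations had both signs, from -0.57 (T15 D) to 0.31 (T30 A). What the letters stand for is not given. The genes and lists were chosen with earlier results of these data known.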

Additional observations from a re-analysis of the deposited data

Results flagged for a closer look

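In 9 of the 132 groups of 4 libraries examined, those of 33 translation factor genes at T0, T15, T60 and T120, 1 library stood apart from the other 3 by more than Dixon's 95% critical value for the gap over the range; chance flags about 1 in 20 groups. At T0, library B was at 82.8 CPM for Eif1, with the others at 65.1 to 67.0, and at 37.0 CPM for Eif2d, with the others at 43.8 to 45.2. T0 library C was at 26.3 CPM for Eif2b1, against 20.9 to 21.7, and T0 library A was at 19.6 CPM for Eif4e3, against 14.5 to 14.95. At T15, library D was at 52.0 CPM for Eif2d, against 38.6 to 40.1, library A was at 34.2 CPM for Eif2s1, against 43.8 to 44.5, and library B was at 31.7 CPM for Eif4ebp2, against 21.7 to 23.2. T120 library B was at 28.8 CPM for Eif2ak3, against 21.8 to 22.7, and at 1452 CPM for Eif4g2, against 1879 to 1900. T120 B also had the highest stray level of its group, 1.13 CPM per kilobase. The cause of these gaps was not tested.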

How the results depend on the processing

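The counts of called translation factor genes were recomputed under each alternative. At T15, where 1 gene was called, the count was 0 with the stray level subtracted and 2, Eif4a1 and Eif1, with DESeq2. At T30, where 4 were called, it was 2 without the 5 libraries of highest stray level and 2 with limma-voom. Between T30 and T60, where 38 were called, it was 14 with the stray level subtracted and 11 without those 5 libraries. The other 120 recomputed counts lay within 1.5 times the values reported. Leaving out each library in turn gave 1 to 1 called gene at T15, 3 to 5 at T30, 26 to 29 at T60, 37 to 39 at T90, 43 to 45 at T120, 28 to 42 between T30 and T60 and 28 to 36 between T60 and T120. With the library letter as a replicate block, 1, 4, 29, 39 and 45 genes were called at T15, T30, T60, T90 and T120, 38 between T30 and T60 and 34 between T60 and T120, so the pairing changed no count by over 1.5 times. Over all listed genes the calls shifted as well. At T15 they went from 54 to 62 with the stray level subtracted and to 80 with DESeq2. At T30 they went from 403 to 147 without the 5 libraries and to 292 with limma-voom. Between T30 and T60 they went from 4111 to 2332 after subtraction and to 1619 without the 5 libraries. All-gene calls of the fits leaving out 1 library are not given here. Of the 123 calls of translation factor genes against T0, 81 were made in every setting. For single genes, 1222 recomputed values kept their call, 93 lost it, and 1 changed sign: Eif4ebp2 at T90 went from -0.45 to 0.45 with the stray level subtracted. Of the ratios, only that of Eif4ebp1 to Eif4ebp2 changed sign, to -1.01, under the same subtraction, for which 0.5 was added to counts; 4 others moved by more than their spread, Eif4e to Eif4e2 to 2.75, Eif4e to Eif4e3 to 3.36, Eif1a to Eif1ax to 2.37 and Eif3j1 to Eif3j2 to 5.42. The value of 5.42 depends on the 0.5 added, as Eif3j1's T0 level lay at the stray level. With the authors' size factors the split of all genes at T30 went from 295 higher and 108 lower to 437 and 41, and the median over all genes from -0.01 to 0.09. Without a low-count filter the calls were those reported, since the filter removed no gene. Ratios over fewer than 4 libraries a group could not pass the adjusted threshold. The cause of these differences was not tested. The stray level in the T0 to T30 libraries limits genes of low level per kilobase there.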
